A study of Homo sapiens with 24 samples.

Results

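The genes described here are 10 genes of glucose uptake and the first steps of glycolysis, SLC2A1, SLC2A3, HK1, HK2, PFKFB3, PFKFB4, PFKL, PFKP, SLC16A3 and TKTL1, of 33382 genes listed. They were taken by symbol from the gene tables of 24 RNA-seq libraries. The set was selected on pathway membership and on fold changes between treatments, constructs and lines in the same libraries, so the adjusted p-values below place each gene within the fit over all genes and are not independent evidence. The libraries came from SW480 and SW620, colorectal adenocarcinoma lines that were derived from a primary tumour and from a lymph node metastasis of the same patient. Each line was infected with a lentivirus that carried Tet2CD, the catalytic domain of the 5-methylcytosine dioxygenase TET2, or with the empty vector. All cells, vector cells included, were selected with puromycin and grown in high-glucose medium, and no clone or promoter is named in the labels. Both constructs were kept for 24 h in 4 ng/ml TGFB1, in 1 µM RepSox, an inhibitor of the type I TGF-beta receptor kinase ALK5, or in DMSO, as the sample labels state. The study's own text describes a mix of TGF-beta ligands and a longer exposure, so the ligand and dose behind each TGFB1 value, and the time behind each TGFB1 and RepSox value, are uncertain. The 12 groups, Tet2CD with TGFB1, RepSox or DMSO and vector with TGFB1, RepSox or DMSO in SW480 and the same 6 in SW620, had 2 libraries each. The labels do not say whether both libraries of a group stem from different cultures, and p-values therefore reflect library-to-library spread that could be technical.

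Cells take up glucose through facilitative transporters, of which SLC2A1 encodes GLUT1 and SLC2A3 encodes the high-affinity transporter GLUT3. Hexokinases, encoded by HK1 and HK2, trap glucose in the cell by phosphorylation, and phosphofructokinase, with the liver-type subunit PFKL and the platelet-type subunit PFKP, commits it to glycolysis. PFKFB3 and PFKFB4 are bifunctional enzymes that make and break down the allosteric activator of phosphofructokinase. SLC16A3 encodes the lactate exporter MCT4, and TKTL1 encodes a relative of transketolase, an enzyme of the pentose phosphate pathway, and is best known from the testis. Several of these genes are textbook targets of the hypoxia-inducible factors (HIF), and colon cancer cells commonly use much glucose with release of lactate.

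Total expected counts ran from 2146123 to 4410567 per library with a median of 3653712, and 15302 genes passed a filter on low counts, all 10 genes among them. TET2 stood at 270 to 2640 CPM (counts scaled to library size) in Tet2CD libraries and at 10.3 to 25.0 CPM in vector libraries. Reads of the construct and of the cell's own gene were counted together. In SW480 Tet2CD cells replicate 1 had 827, 270 and 894 CPM with TGFB1, RepSox and DMSO, against 2640, 1690 and 1849 CPM in replicate 2. The part that this lower level has in the SW480 Tet2CD values was not tested. The 3 SW480 Tet2CD libraries numbered replicate 1 stood apart. Ribosomal protein genes took 10.11% to 14.98% of their counts, against 5.74% to 9.42% in the other 21 libraries, and the mean GC content of their counts was 52.89% to 53.96%, against 50.11% to 52.22%. Results that rest on these 3 libraries are therefore given with and without them. Without them each SW480 Tet2CD group had 1 library, and the spread was taken from the other groups. P-values and calls there do not measure spread between SW480 Tet2CD libraries. The 7 colorectal epithelial markers summed to 7053 to 12770 TPM in SW480 and 6933 to 11080 TPM in SW620. KRT8 (3456 to 6590 TPM) and KRT18 (2271 to 6975 TPM) gave most of these sums. EPCAM had 231 to 727 TPM, CDH1 22.9 to 225 TPM and VIL1 19.3 to 325 TPM. CDX2 had 29.5 to 143 TPM in SW480 and 5.43 to 24.85 TPM in SW620, and KRT20 was low in both lines (0 to 4.55 TPM). Markers of blood cells (1.34 to 8.63 TPM in SW480 and 15.66 to 46.28 TPM in SW620), endothelium (at most 7.87 and 11.56 TPM) and fibroblasts (at most 13.67 and 31.97 TPM) were low.

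Levels are given in TPM, a unit scaled to transcript length and library size. Fold changes come from counts, as log2 of the first group named over the second with standard errors (SE) from edgeR's quasi-likelihood test, and a gene is called at an adjusted p under 0.05 over all 15302 genes. SLC2A1 ranged from 180 to 1357 TPM over the 24 libraries, and SLC2A3 had the widest range among the genes detected in every library, from 8.23 to 1501 TPM. HK1 ranged from 31.6 to 128 TPM and PFKP from 46.3 to 231 TPM, whereas HK2 ranged from 3.58 to 101 TPM, PFKFB3 from 1.70 to 67.01 TPM and PFKFB4 from 8.84 to 132 TPM. PFKL (73.7 to 157 TPM) and SLC16A3 (151 to 476 TPM) varied least. TKTL1 ranged from 0 to 152 TPM and was listed at 0 in some libraries.

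**Figure D1:**
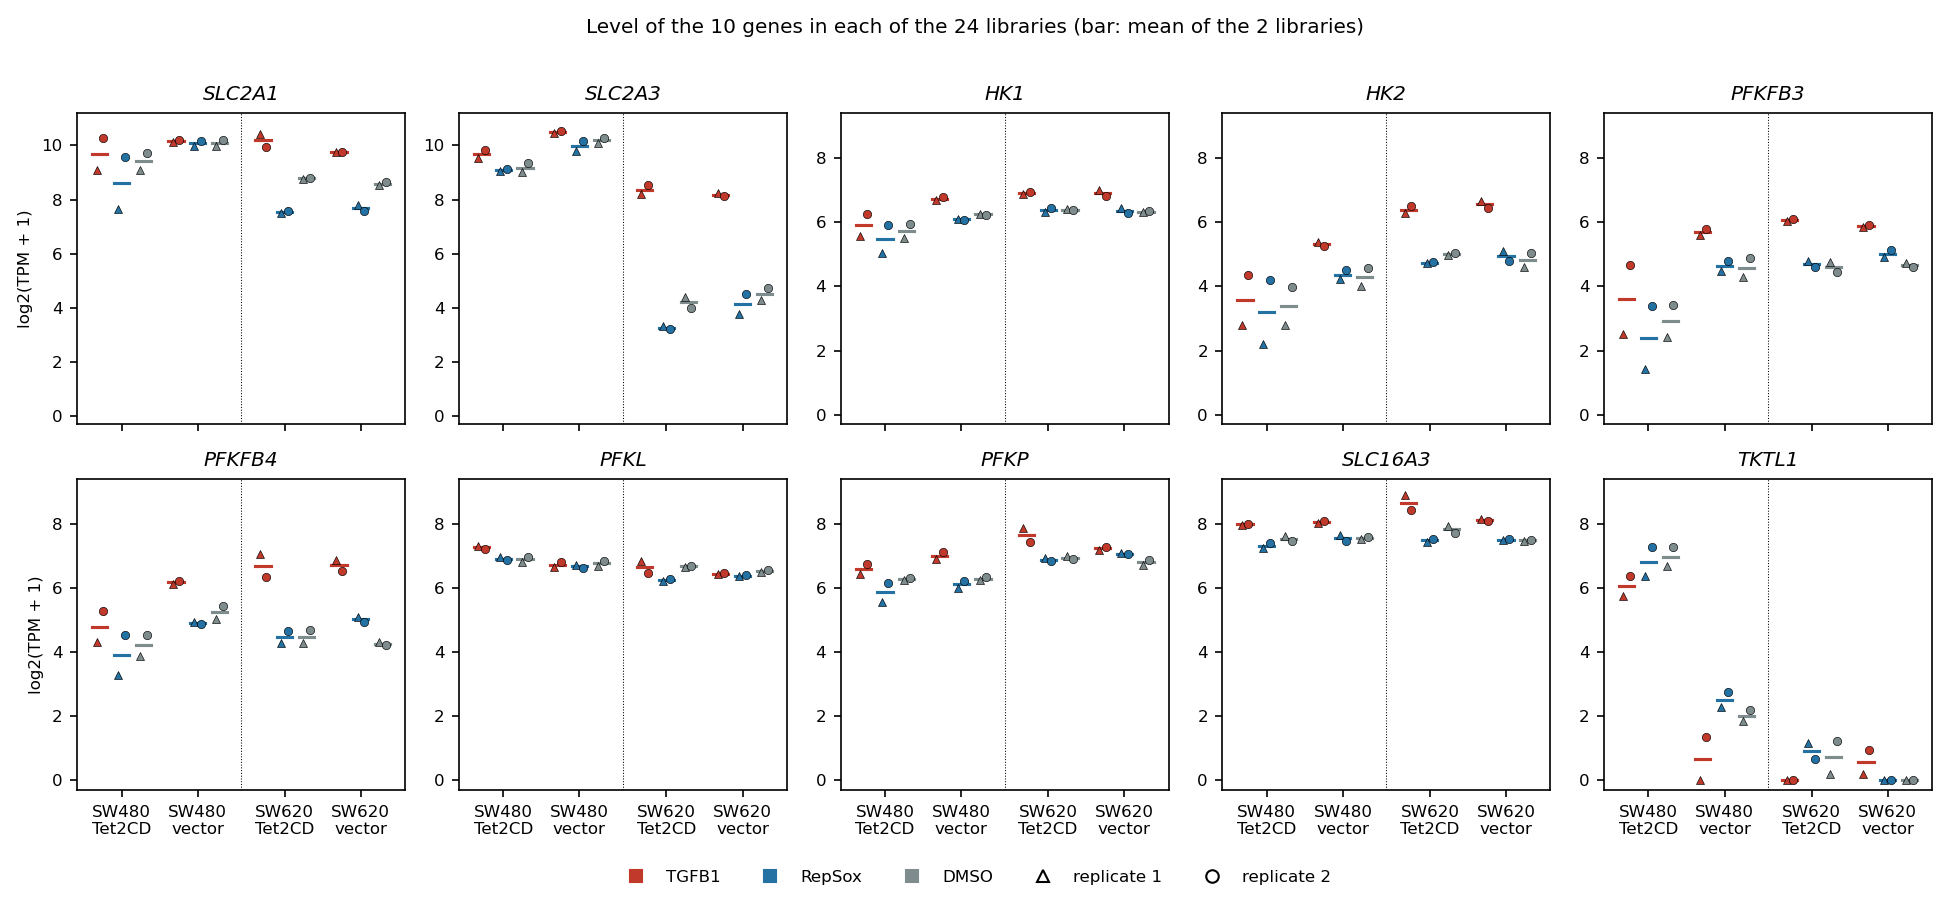
Level of each of the 10 genes as log2(TPM + 1) on the vertical axis, in SW480 and SW620 cells with Tet2CD or vector on the horizontal axis. Colours give TGFB1, RepSox and DMSO, triangles and circles the 2 libraries, and bars their mean. TGFB1 libraries of SW620 lie above the RepSox and DMSO libraries for SLC2A3 (277 to 372 TPM with TGFB1), and TKTL1 is high in the SW480 Tet2CD libraries alone (52.5 to 152 TPM).

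TGFB1 raised 8 of the 10 genes in SW620 cells, across uptake, both early kinase steps and lactate export, in a comparison that averages Tet2CD and vector cells. The glucose transporter gene SLC2A3 (chromosome 12, 7919230 to 7936275, minus strand, GRCh38) had the largest change. It stood at 291 and 372 TPM in Tet2CD cells with TGFB1, against 20.3 and 15.1 TPM in Tet2CD cells with DMSO, and at 300 and 277 TPM in vector cells with TGFB1, against 18.8 and 25.4 TPM in vector cells with DMSO. All 4 TGFB1 libraries lay above all 4 DMSO libraries, a 13.8-fold difference (log2 fold change 3.79, SE 0.16, adjusted p = 3.73e-10). Over all genes 8.31% were called higher in this comparison and 7.27% lower. Of the 10 genes none was called lower.

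The other transporter gene, SLC2A1 (chromosome 1, 42925375 to 42959176, minus strand), had 1357 and 997 TPM in Tet2CD cells and 871 and 873 TPM in vector cells with TGFB1, against 436 and 447 TPM in Tet2CD cells and 374 and 396 TPM in vector cells with DMSO. It rose 2.44-fold (1.29, SE 0.17, adjusted p = 8.15e-05), and the 2 treatments did not overlap. SW480 vector cells with DMSO had 1021 and 1173 TPM of SLC2A1, and 1 of the 4 SW620 libraries with TGFB1 lay above both and the other 3 below both. For SLC2A3 all 4 lay below the 1099 and 1237 TPM of those SW480 cells.

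Among the genes that act on phosphofructokinase, PFKFB4 (chromosome 3, 48517684 to 48562015, minus strand) rose 5.77-fold with TGFB1 in SW620 (2.53, SE 0.15, adjusted p = 3.31e-08). Its levels were 132 and 79.4 TPM in Tet2CD cells and 116 and 91.0 TPM in vector cells with TGFB1, against 18.5 and 24.6 TPM in Tet2CD cells and 18.9 and 17.5 TPM in vector cells with DMSO. PFKFB3 (chromosome 10, 6144934 to 6254644, plus strand) had 64.1 and 67.01 TPM in Tet2CD cells and 56.8 and 58.8 TPM in vector cells with TGFB1, against 26.1 and 20.9 TPM in Tet2CD cells and 25.8 and 23.3 TPM in vector cells with DMSO (1.34, SE 0.26, adjusted p = 0.00231). Neither gene's TGFB1 and DMSO libraries overlapped. The phosphofructokinase subunit genes differed from each other in this comparison. PFKP rose (0.48, SE 0.12, adjusted p = 0.0113), with 145 to 231 TPM with TGFB1 against 105 to 126 TPM with DMSO, and PFKL was not called (-0.07, SE 0.15, adjusted p = 0.821), with 84.3 to 114 TPM against 89.3 to 102 TPM.

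HK2 (chromosome 2, 74833981 to 74893359, plus strand), the hexokinase gene that is induced in many tumours, had 76.7 and 89.3 TPM in Tet2CD cells and 101 and 85.7 TPM in vector cells with TGFB1. With DMSO it had 30.5 and 32.2 TPM in Tet2CD cells and 23.3 and 32.0 TPM in vector cells. It rose 2.84-fold (1.504, SE 0.25, adjusted p = 0.000642). HK1 (chromosome 10, 69269984 to 69401884, plus strand), the more widely expressed hexokinase gene, rose less (0.50, SE 0.09, adjusted p = 0.00117), with 111 to 128 TPM with TGFB1 against 78.4 to 83.7 TPM with DMSO. SLC16A3 (chromosome 17, 82228397 to 82261129, plus strand) had 268 to 476 TPM with TGFB1 against 176 to 242 TPM with DMSO (0.78, SE 0.20, adjusted p = 0.0114). In each of these 3 genes the 4 TGFB1 libraries lay above the 4 DMSO libraries.

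The promoter of HK2 is shown because the core letters of the HIF binding element, ACGTG or GCGTG, stood there most often among the windows of these genes. It was thus picked for its matches. The window is one of 25 RefSeq windows (GRCh38.p14, the 250 bases before a transcript start) that matched 9 of the 10 genes. It lies at chr2:74834920-74835169 on the plus strand, outside the HK2 exons of GENCODE release 29, and capitals mark the core letters on either strand.
HK2: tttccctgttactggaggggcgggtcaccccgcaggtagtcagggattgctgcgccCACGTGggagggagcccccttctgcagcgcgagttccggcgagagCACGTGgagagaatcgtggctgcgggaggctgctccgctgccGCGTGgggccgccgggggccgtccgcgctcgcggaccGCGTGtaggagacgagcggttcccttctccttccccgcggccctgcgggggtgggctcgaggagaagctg
The window held 6 matches, counting the palindrome CACGTG once on each strand. At least 1 match stood in 12 of the 25 windows (48%), against 43.2% of 35116 windows of all genes, so the letters were about as frequent as elsewhere. The letters CAGAC, which SMAD factors can bind, stood on either strand in 7 of the 25 windows (28%) and in 38% of all windows. These matches are letters only, and no binding was measured.

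RepSox moved fewer of the genes in SW620. Both transporter genes fell. SLC2A3 stood at 9.04 and 8.23 TPM in Tet2CD cells and 12.8 and 21.7 TPM in vector cells with RepSox, against 15.1 to 25.4 TPM with DMSO (-1.06, SE 0.15, adjusted p = 0.000542), and its vector libraries overlapped those with DMSO in TPM. SLC2A1 had 180 and 190 TPM in Tet2CD cells and 224 and 193 TPM in vector cells with RepSox, all below the 374 to 447 TPM with DMSO (-0.99, SE 0.17, adjusted p = 0.00229). PFKFB4 rose (0.61, SE 0.15, adjusted p = 0.0262), with 33.2 and 29.6 TPM in vector cells with RepSox but 18.3 and 24.1 TPM in Tet2CD cells, where it overlapped DMSO. In all 2.01% of genes were called higher and 2.68% lower with RepSox in SW620, and the remaining 6 genes with an estimate lay between -0.22 and 0.27. Both agents share their DMSO libraries. Set against each other in SW620, TGFB1 was higher than RepSox for 7 of the 10 genes, led by SLC2A3 (4.85, SE 0.17, adjusted p = 1.85e-11), SLC2A1 (2.28, SE 0.17, adjusted p = 2.02e-07) and PFKFB4 (1.92, SE 0.15, adjusted p = 2.02e-07), while 14.5% of all genes were called higher and 14.5% lower. PFKP did not pass the threshold there (0.31, SE 0.12, adjusted p = 0.0613).

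**Figure D2:**
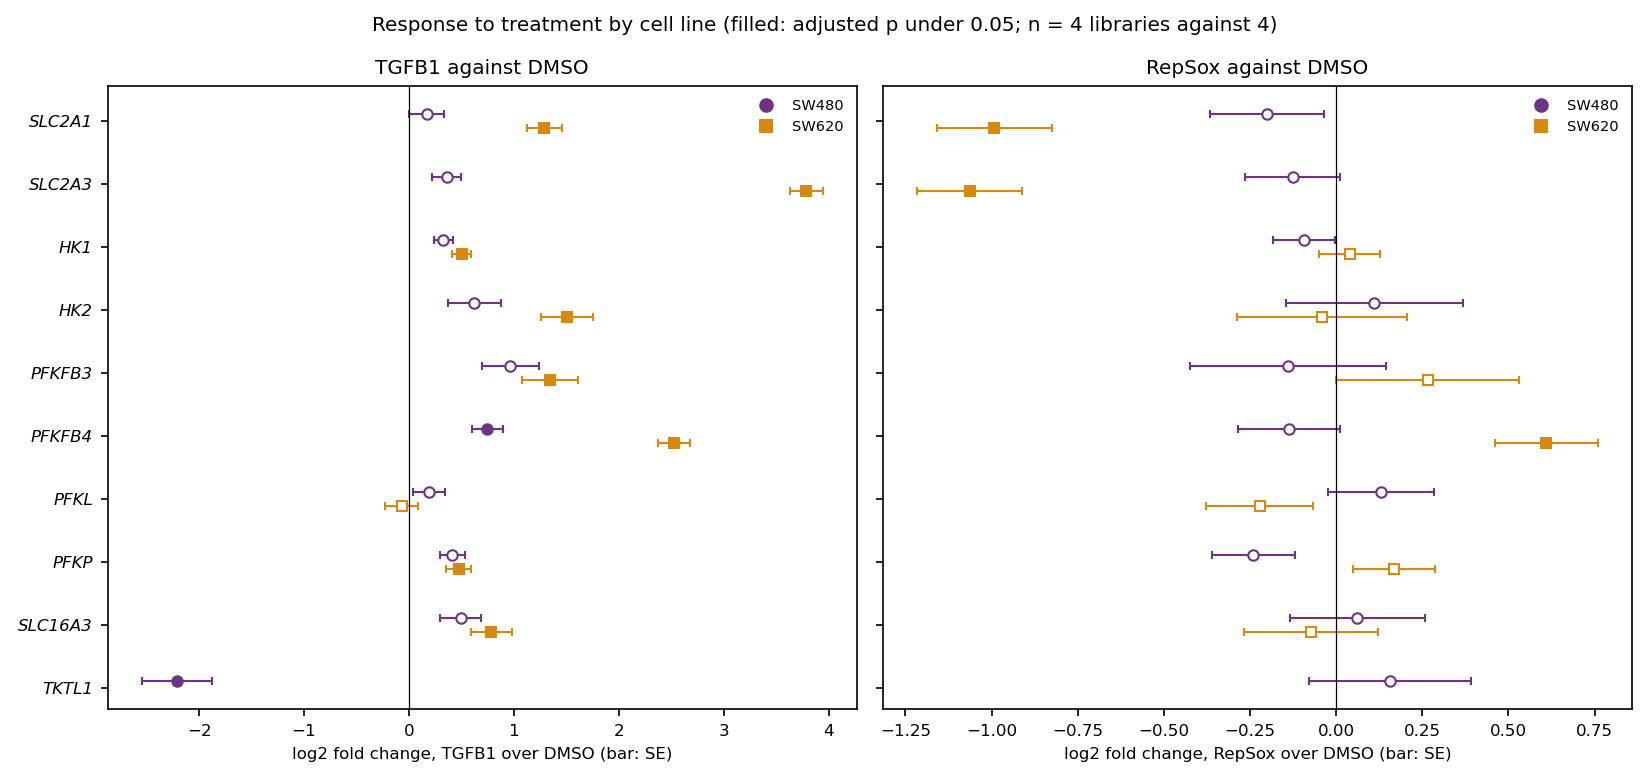
Log2 fold change of TGFB1 over DMSO (left) and RepSox over DMSO (right) on the horizontal axes for each gene, with SE bars, circles for SW480 and squares for SW620, 4 libraries against 4, filled where the adjusted p was under 0.05. In SW620 8 genes are filled with TGFB1, led by SLC2A3 at 3.79, and 3 with RepSox. TKTL1 has no SW620 value because it was at or near 0 there.

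In SW480 the same treatment gave smaller values and few calls. PFKFB4 rose with TGFB1 (0.75, SE 0.15, adjusted p = 0.0165), with 18.7 and 37.9 TPM in Tet2CD cells and 68.6 and 73.5 TPM in vector cells, against 13.8 and 22.3 TPM in Tet2CD cells and 31.8 and 42.0 TPM in vector cells with DMSO. TKTL1 fell and is described below. The other 8 genes had positive values that were not called, from 0.17 (SE 0.17, adjusted p = 0.764) for SLC2A1 to 0.97 (SE 0.27, adjusted p = 0.113) for PFKFB3, against 0.732% of all genes called higher and 0.314% lower. The values moved little without the 3 SW480 Tet2CD replicate 1 libraries, which leaves 1 library in each SW480 Tet2CD group. PFKFB3 then stood at 1.09, HK2 at 0.64, HK1 at 0.36, PFKP at 0.45, SLC16A3 at 0.48 and SLC2A3 at 0.37. The median of the 10 genes was 0.385 with all libraries and 0.409 without the 3. Calls of that smaller fit are not given, so the few calls above hold for the fit of all libraries. With SW480 libraries fitted alone none of the 10 was called. RepSox against DMSO in SW480 called none of the 10 genes and 0.0% of all genes by edgeR, of which 433 had an unadjusted p under 0.05, and DESeq2 also called none of the 10. Their values lay between -0.24 and 0.16.

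TGFB1 against RepSox in SW480 called 4 of the genes higher, PFKFB4 (0.88, SE 0.15, adjusted p = 0.00467), PFKP (0.65, SE 0.12, adjusted p = 0.00905), HK1 (0.42, SE 0.09, adjusted p = 0.0213) and PFKFB3 (1.11, SE 0.28, adjusted p = 0.05, just under the threshold), against 1.22% of all genes. TKTL1 was lower (-2.37, SE 0.33, adjusted p = 0.0024), against 0.83% of all genes. The median of the 10 genes was 0.458, and 0.479 without the 3 libraries that stand apart. With SW480 fitted alone 1 of the 10 was called. Within Tet2CD cells none was called, and within vector cells 4 were, PFKFB4, PFKP, HK1 and TKTL1. The share of all genes called in these settings is not given here, so the counts cannot be set against it.

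The difference between the lines was itself tested. The TGFB1 effect was smaller in SW480 than in SW620 for SLC2A3 (difference of log2 fold changes -3.43, SE 0.20, adjusted p = 1.13e-07), PFKFB4 (-1.78, SE 0.21, adjusted p = 0.000404) and SLC2A1 (-1.12, SE 0.23, adjusted p = 0.0189), while 0.902% of all genes were called with a larger and 1.17% with a smaller effect in SW480. HK2 missed the threshold (-0.88, SE 0.35, adjusted p = 0.255), with a value of -0.84 without the 3 libraries. The RepSox effect differed for SLC2A3 alone of the 10 (0.94, SE 0.21, adjusted p = 0.0383), which fell in SW620 and was not called in SW480, against 0.699% and 0.327% of all genes called with a higher and a lower value in SW480. SLC2A1 had a difference of 0.79 (SE 0.23, adjusted p = 0.146), which was not called, and of 0.96 without the 3 libraries.

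In vector cells with DMSO the lines differed most in SLC2A3 and TKTL1, with TKTL1 at 0 TPM in SW620. SLC2A3 had 1099 and 1237 TPM in SW480 vector cells with DMSO, against 18.8 and 25.4 TPM in SW620 vector cells with DMSO, a 46.3-fold difference (5.53, SE 0.24, adjusted p = 1.07e-10). SLC2A1 had 1021 and 1173 TPM in SW480 against 374 and 396 TPM in SW620 (1.45, SE 0.24, adjusted p = 0.000156), and PFKFB4 had 31.8 and 42.0 TPM in SW480 against 18.9 and 17.5 TPM in SW620 (1.03, SE 0.21, adjusted p = 0.0011). PFKP was lower, with 74.4 and 80.1 TPM in SW480 against 105 and 115 TPM in SW620 (-0.61, SE 0.17, adjusted p = 0.00988). The lines did not overlap for any of these 4 genes, and 17.8% of all genes were called higher in SW480 and 16.8% lower. Averaged over the 3 treatments of vector cells, SLC2A3 (4.74, SE 0.13), SLC2A1 (1.39, SE 0.14) and TKTL1 remained higher in SW480, and PFKP (-0.66, SE 0.10), HK1 (-0.26, SE 0.07) and HK2 (-0.86, SE 0.20) were lower, against 28.9% and 30.0% of all genes. Reads of SLC2A3 could be shared with its near-identical neighbour SLC2A14. Of the 6288 different 50-base stretches in SLC2A3 transcripts of GENCODE 15.3% also occur in SLC2A14 transcripts, and SLC2A14 itself stood at 0 to 8.24 TPM, so the split between these genes is uncertain but small beside the level of SLC2A3.

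TKTL1 (chromosome X, 154295671 to 154330350, plus strand) was the gene that Tet2CD moved most in SW480. With DMSO it had 101 and 152 TPM in Tet2CD cells and 2.57 and 3.59 TPM in vector cells. With TGFB1 it had 52.5 and 80.9 TPM in Tet2CD cells and 0 and 1.55 TPM in vector cells, and with RepSox 81.2 and 152 TPM in Tet2CD cells and 3.91 and 5.69 TPM in vector cells. Every Tet2CD library lay above every vector library. The 2 Tet2CD libraries with DMSO held 1474 counts and the 2 vector libraries 35, a ratio of 46.8 after scaling for depth (95% interval 33.5 to 67.5, which covers counting error only), and the fitted value was 5.53 (SE 0.35, adjusted p = 2.1e-06). Without the 3 libraries that stand apart it was 5.58, and with SW480 fitted alone 5.53 (adjusted p = 0.000713).

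In SW620 TKTL1 was at the edge of detection, from 0 to 1.36 TPM. It had 7 counts in the 2 Tet2CD libraries with DMSO and 0 in the 2 vector libraries, which is at least 1.86-fold higher when the vector group is set to 3 counts in all and was not called (adjusted p = 1 with an unadjusted p of 0.00783). SW480 vector cells with DMSO were at least 10.6-fold higher than SW620 vector cells by the same rule. No standard error could be had for TKTL1 in most SW620 comparisons, so it has no value for the difference between the lines.

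TGFB1 lowered TKTL1 in SW480 (-2.21, SE 0.34, adjusted p = 0.00563), at -4.04 without vector TGFB1 replicate 2 and -1.73 without vector TGFB1 replicate 1. With SW480 fitted alone the call was lost (-2.22, adjusted p = 0.111). The vector cells gave most of this average. They had 3 counts over the 2 TGFB1 libraries against 35 over the 2 DMSO libraries, a ratio of 0.0825 (95% interval 0.0162 to 0.262). The contrast within vector cells, tested in the fit of all 24 libraries, gave -3.48 (SE 0.63, adjusted p = 0.0323). In Tet2CD cells the counts were 719 with TGFB1 against 1474 with DMSO, a ratio of 0.514 (0.469 to 0.562). The contrast within Tet2CD cells in the same fit gave -0.94 (SE 0.27, adjusted p = 0.306). The test of the difference between the constructs did not pass (2.54, SE 0.71, adjusted p = 0.766), and its value was 6.17 without vector TGFB1 replicate 2 and 1.55 without replicate 1.

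The upstream sequence of TKTL1 is shown because TET enzymes act on methylated cytosines at CG sites and this gene stood furthest apart with Tet2CD. The stretch is the part of the first RefSeq window that lies before the GENCODE gene start, at chrX:154295545-154295670 on the plus strand (GRCh38.p14), with each CG in capitals.
TKTL1: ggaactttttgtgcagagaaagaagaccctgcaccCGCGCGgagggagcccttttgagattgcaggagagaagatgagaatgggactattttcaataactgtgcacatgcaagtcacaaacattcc
It held 3 CG sites in 126 bases, next to each other. The whole 250-base window held 13, and 55.2% of all windows held as many or fewer, so it was near the middle of all genes. The first HK2 window held 34, a number that 94.2% of windows did not exceed. DNA methylation was not analysed here.

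Another 6 genes were lower in SW480 Tet2CD cells than in vector cells when the 3 treatments were averaged. PFKFB3 fell most (-1.63, SE 0.23, adjusted p = 4.7e-05). In Tet2CD cells it had 4.74 and 24.4 TPM with TGFB1, 1.70 and 9.37 TPM with RepSox and 4.37 and 9.62 TPM with DMSO, against 47.4 and 53.8 TPM, 21.1 and 26.9 TPM, and 18.4 and 28.3 TPM in vector cells. Within each treatment both Tet2CD libraries lay below both vector libraries, and in each of them replicate 1 was the lower of the pair.

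SLC2A3 fell with the smallest adjusted p of the 6 (-0.97, SE 0.11, adjusted p = 8.66e-06). It had 734 and 904 TPM with TGFB1, 526 and 556 TPM with RepSox and 518 and 649 TPM with DMSO in Tet2CD cells, against 1415 and 1501 TPM, 899 and 1151 TPM, and 1099 and 1237 TPM in vector cells. The 2 constructs did not overlap within a treatment. HK2 (-0.99, SE 0.21, adjusted p = 0.0012), PFKFB4 (-0.59, SE 0.12, adjusted p = 0.000905), SLC2A1 (-0.49, SE 0.14, adjusted p = 0.00699) and HK1 (-0.32, SE 0.07, adjusted p = 0.00238) fell as well. PFKL rose with TKTL1 (0.55, SE 0.13, adjusted p = 0.00205). The background was high in this comparison, with 29.2% of all genes called higher and 25.3% lower.

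Part of the size of these values came with the 3 libraries that stand apart. On the scale of the counts, HK2 had 28.6, 22.4 and 25.1 CPM in them with TGFB1, RepSox and DMSO. The replicate 2 libraries had 58.8, 56.3 and 47.9 CPM. SLC2A1 had 1768, 876 and 1592 CPM against 2470, 1683 and 1819 CPM. The gaps were wider in TPM. Without the 3 libraries, which leaves no replicate in the SW480 Tet2CD groups, the same 8 genes kept their directions. HK2 stood at -0.59, SLC2A1 at -0.27, PFKFB3 at -1.21, SLC2A3 at -0.84 and PFKL at 0.30. The 10 genes had a transcript GC content of 47.0% to 66.0%, against a median of 50.8% over tested genes. With an offset for GC content PFKL was no longer higher (-0.07, adjusted p = 0.484), and PFKP (-0.31, adjusted p = 0.00462) and SLC16A3 (-0.48, adjusted p = 0.0005), neither of which was called otherwise (0.02, adjusted p = 0.892, and 0.23, adjusted p = 0.242), were lower.

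**Figure D3:**
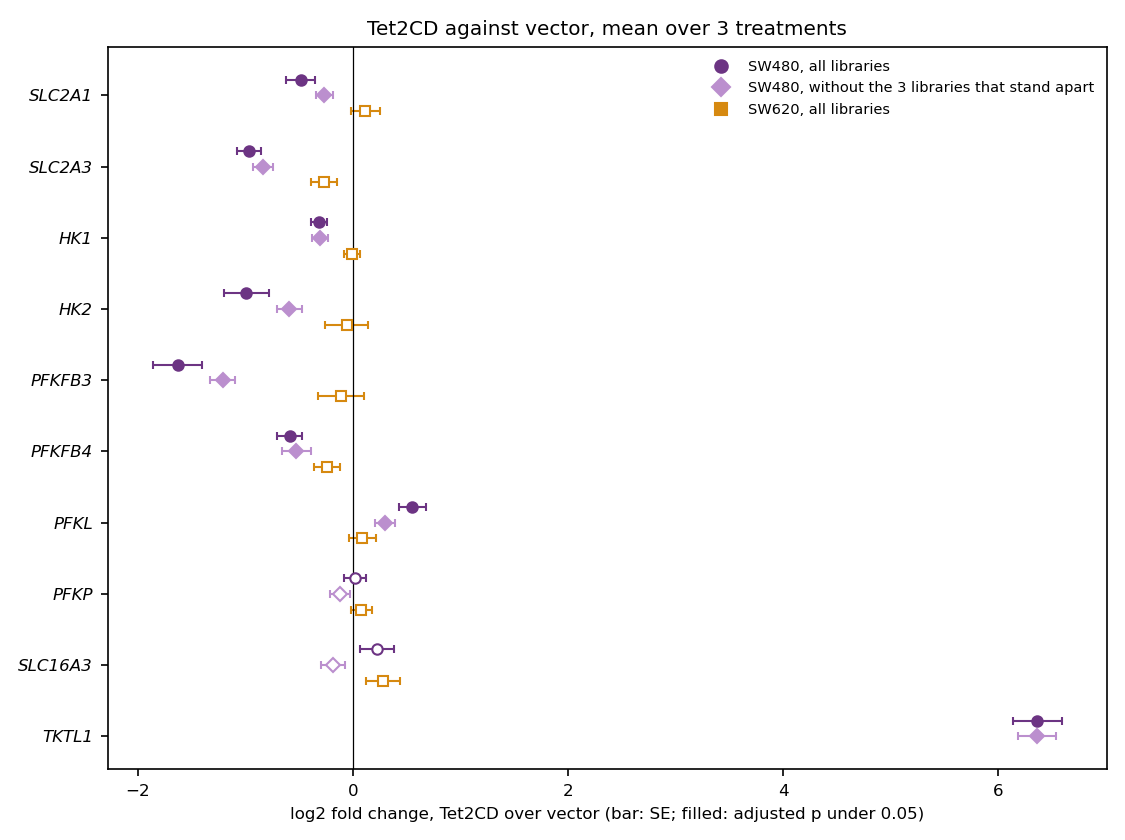
Log2 fold change of Tet2CD over vector averaged over the 3 treatments (horizontal axis, SE bars) for each gene, in SW480 with all libraries (circles), in SW480 without the 3 libraries that stand apart (diamonds) and in SW620 (squares), filled where the adjusted p was under 0.05. TKTL1 lies at 6.36 in SW480, 6 genes are filled below 0 there with all libraries, and no SW620 value is filled. The diamonds leave no replicate in the SW480 Tet2CD groups.

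With DMSO alone, 4 of the 10 genes differed between SW480 Tet2CD and vector cells. TKTL1 was higher, against 4.19% of all genes, and SLC2A3 (-1.02, SE 0.20, adjusted p = 0.00563), PFKFB3 (-1.52, SE 0.40, adjusted p = 0.0318) and PFKFB4 (-0.72, SE 0.21, adjusted p = 0.0489) were lower, against 2.57%. HK2 (-0.77, SE 0.36, adjusted p = 0.195), SLC2A1 (-0.44, SE 0.23, adjusted p = 0.241) and HK1 (-0.27, SE 0.13, adjusted p = 0.196) were not called. Without the 3 libraries PFKFB4 lost its call (-0.70, adjusted p = 0.0625), and with SW480 libraries fitted alone only TKTL1 was called of the 10.

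In SW620 none of the 10 genes was called between Tet2CD and vector cells, with DMSO (0.0261% of all genes called by edgeR, 416 with an unadjusted p under 0.05) or averaged over treatments (0.314%, with 1100 under 0.05), and DESeq2 called none of the 10 either. The 9 averaged values with an estimate lay between -0.27 for SLC2A3 and 0.28 for SLC16A3. The test of the difference between the lines was past the threshold for 5 genes, each with a lower value in SW480. They were PFKFB3 (-1.52, SE 0.31, adjusted p = 0.00395), HK2 (-0.94, SE 0.29, adjusted p = 0.0329), SLC2A3 (-0.70, SE 0.17, adjusted p = 0.00916), SLC2A1 (-0.60, SE 0.19, adjusted p = 0.0374) and HK1 (-0.31, SE 0.10, adjusted p = 0.0478), against 10.2% of all genes called with a higher and 9.93% with a lower value. Without the 3 libraries the 5 stayed negative, and SLC16A3 stood at -0.48. The response to TGFB1 or RepSox was not called as different between Tet2CD and vector cells for any of the 10 genes, in SW480 (0.0131% and 0.0% of all genes by edgeR, 741 and 294 with an unadjusted p under 0.05) or in SW620 (0.0% for both, 201 and 188), and DESeq2 called none of them.

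With TGFB1 in SW620 the median of the 10 genes was 1.29 over the 9 with an estimate, against 0.01 over all genes, but they were selected partly on such fold changes. The rest of the pathway is given as counts beside the 8.31% of all genes called higher and 7.27% called lower. Among 14 other glucose transporter genes and their regulators, 11 were tested and 2 rose, SLC2A11 (0.86, SE 0.21) and TXNIP (0.74, SE 0.19), which encodes an inhibitor of glucose uptake. Of 7 tested genes among the other early glycolysis genes 2 rose, the hexokinase-like gene HKDC1 (1.31, SE 0.24) and GPI (0.62, SE 0.16), which encodes glucose phosphate isomerase. Of 12 tested genes of lower glycolysis 4 rose, led by ENO2 (1.38, SE 0.15) and ALDOC (1.20, SE 0.21), and LDHB fell (-0.55, SE 0.15). The pentose phosphate list had 1 of 7 called, RPIA, which was lower (-1.02, SE 0.18). Of 7 genes of pyruvate entry 2 were called. The pyruvate dehydrogenase kinase gene PDK1, whose product inhibits the dehydrogenase, rose (1.20, SE 0.18). PDHA1, which encodes a subunit of the dehydrogenase, fell (-0.61, SE 0.12). SLC16A8 rose (1.28, SE 0.38) and BSG, the chaperone of the monocarboxylate transporters, fell (-0.72, SE 0.20), 2 of 3 tested.

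Of 16 genes of the HIF pathway and response 10 were called higher with TGFB1 in SW620, against 8.31% of all genes, and none lower, with a median of 1.36, among them the HIF prolyl hydroxylase gene EGLN3 (3.12, SE 0.15, adjusted p = 1.51e-09) and NDRG1 (2.46, SE 0.14, adjusted p = 2.24e-08). In SW480 6 of the 16 rose, against 0.732% of all genes, and none fell (median 0.46, against 0.02 over all genes). NDRG1 stood at 1.28 (SE 0.13) and EGLN3 at 0.94 (SE 0.14), and the median was 0.511 without the 3 libraries. LDHA, which encodes the lactate dehydrogenase subunit that favours lactate, was the 1 gene of lower glycolysis called in SW480 (0.81, SE 0.10, adjusted p = 0.000841), and no gene of the other 5 lists was called there. With RepSox in SW620 NDRG1 rose (0.67, SE 0.14) and ADM, which encodes the secreted peptide adrenomedullin, fell (-1.29, SE 0.33), while TXNIP (-1.02, SE 0.20), SLC2A12 (-1.39, SE 0.31), HKDC1 (-1.34, SE 0.26), LDHA (-0.38, SE 0.10) and PDK2 (-1.42, SE 0.18) fell. These lists were drawn up with earlier results of these libraries known, and their counts are descriptions.

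**Figure D4:**
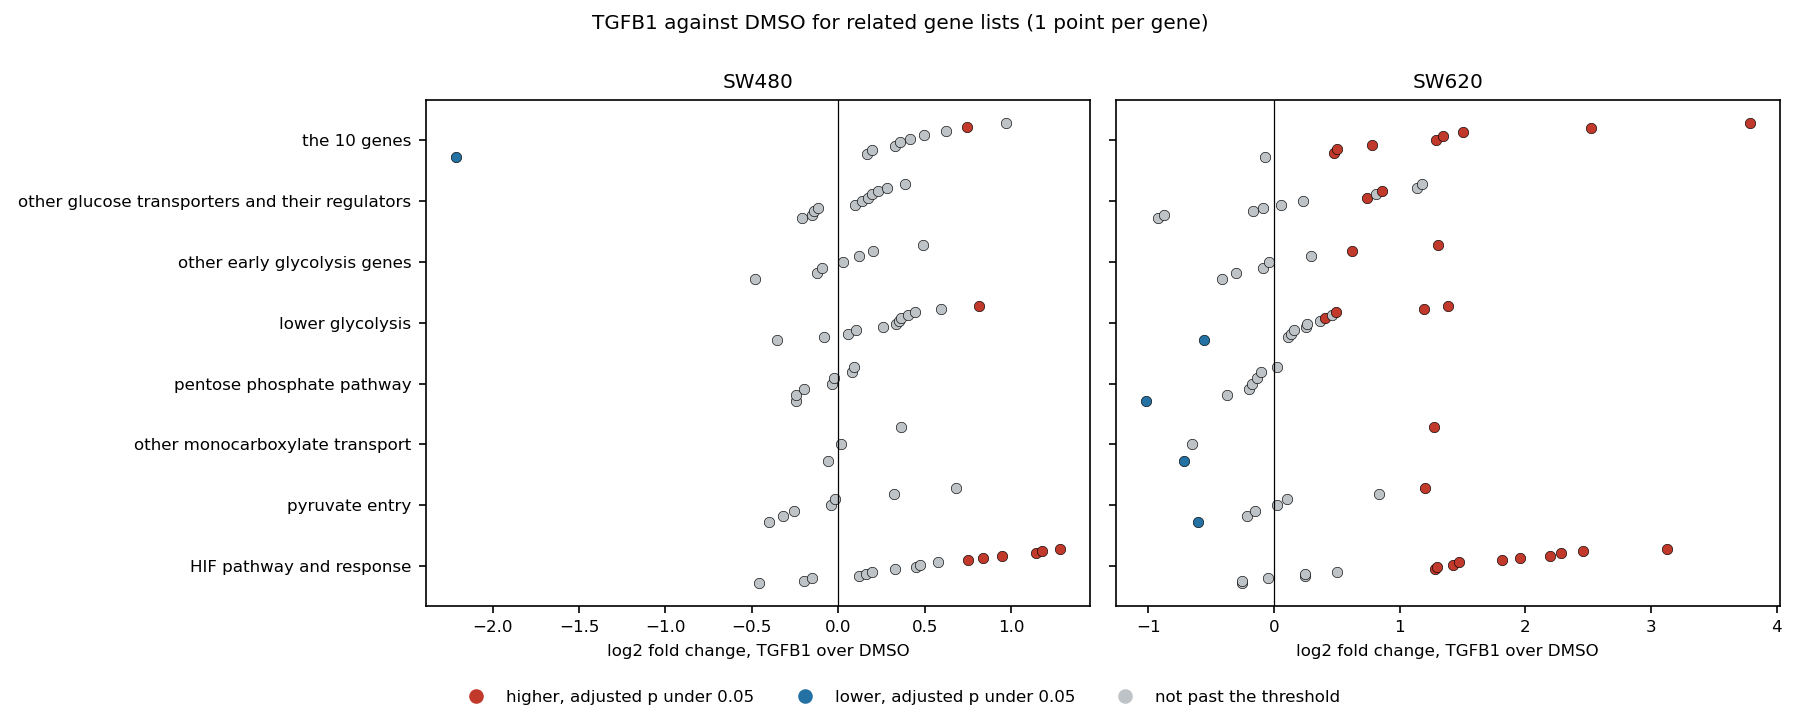
Log2 fold change of TGFB1 over DMSO (horizontal axes) for each tested gene of the 10 genes and of 7 related lists (rows) in SW480 (left) and SW620 (right), 1 point per gene, red where called higher, blue where called lower and grey where not called. In the HIF list 10 of 16 points are red in SW620 and 6 of 16 in SW480.

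Between the lines with vector and DMSO the related lists were split, in a comparison that called 17.8% of all genes higher in SW480 and 16.8% lower. Of the other glucose transporters and regulators 6 were higher in SW480, such as SLC2A6 (3.17, SE 0.37), and 3 were lower, among them TXNIP (-3.55, SE 0.31) and its relative ARRDC4 (-3.85, SE 0.36), both glucose-responsive genes that restrain uptake. SLC2A14 was also called higher, but it was near 0 in SW620 and may share reads with SLC2A3. In the HIF list 7 were higher in SW480, including EPAS1 (8.53, SE 0.58), which encodes the HIF subunit HIF-2alpha, and NDRG1 (3.11, SE 0.20), and 4 were lower, including the carbonic anhydrase gene CA9 (-4.26, SE 0.32) and P4HA1 (-1.11, SE 0.24). HKDC1 (-2.77, SE 0.40), PGK1 (-1.05, SE 0.16), ENO3 (-2.17, SE 0.35) and PDK3 (-0.75, SE 0.25) were lower in SW480, whereas PFKFB2 (1.53, SE 0.24), ENO2 (0.76, SE 0.21), RPIA (0.80, SE 0.24) and the lactate carrier gene SLC16A1 (0.92, SE 0.32) were higher.

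With Tet2CD in SW480 and DMSO, 4 of 11 other glucose transporter and regulator genes rose, among them ARRDC4 (2.32, SE 0.38) and the insulin-responsive transporter gene SLC2A4 (2.86, SE 0.58), and none fell, against 4.19% of all genes called higher and 2.57% lower. The median of the 11 was 0.315, and 0.561 without the 3 libraries that stand apart. FBP1, which encodes the gluconeogenic enzyme that reverses the phosphofructokinase step, rose (2.51, SE 0.57), as did ALDOC (1.08, SE 0.31) and the mitochondrial pyruvate carrier gene MPC1 (1.11, SE 0.31), which was not called without the 3 libraries (0.87, adjusted p = 0.111). LDHA (-0.62, SE 0.14), PGK1 (-0.61, SE 0.16), DDIT4 (-1.30, SE 0.21) and NDRG1 (-0.81, SE 0.19) fell, the last pair being the 2 of 16 HIF genes called. The median of the HIF genes was -0.602, and -0.345 without the 3 libraries. For lower glycolysis it was 0.074, and -0.267 without them. Averaged over the 3 treatments, FBP1 was also called higher with Tet2CD in SW620, where 0.314% of all genes were called in either direction. The averaged Tet2CD effect on FBP1 was not called as different between the lines.

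Across the 12 group means, after the mean of each line was taken off, some of the genes followed each other. The highest correlations of log2 CPM were between SLC2A1 and SLC2A3 (Pearson r = 0.951), HK1 and HK2 (0.944) and HK2 and PFKFB3 (0.912), and the lowest was between PFKFB3 and TKTL1 (-0.866). These values share libraries, constructs and treatments and are descriptions. Among all tested genes the pattern of SLC2A3 was most like those of TSC22D3 (0.988), HELZ2 (0.98) and EGLN1 (0.973), that of HK2 like ITGA1 (0.987), RALGAPA2 (0.984) and DDIT4 (0.983), that of PFKFB4 like NFKB2 (0.975), CDCP1 (0.975) and ITGA5 (0.972), and that of TKTL1 like APH1B (0.983), ACP5 (0.978) and MARCH2 (0.975), each over 12 group means. SLC16A3 was most like SECTM1 (0.964), which also lies on chromosome 17, and 3 of the 10 genes, HK1, PFKFB3 and PFKP, lie on chromosome 10.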

How the data were processed

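RNA-seq was read from 24 gene tables, 1 per library. RNA was taken up in TRIzol and made into TruSeq libraries, RSEM was run with bowtie2, and a normalization for GC content is stated, and the submitters' processing notes name Bowtie, RSEM and the mouse build mm10, whereas all gene identifiers are human. The authors deposited an expected count per gene, RSEM's estimate of its fragments, and TPM, which is scaled by transcript length. Whether counting used strand was not stated. GENCODE release 29 gave symbols for 32777 of 33382 genes (98.2%). Total counts of 2146123 to 4410567 per library limit the precision for weakly expressed genes.

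Expected counts were rounded and tested with edgeR 4.0.16 (R 4.3.3, TMM scaling, filter on low counts) in 1 fit of 24 libraries with a mean per group and 12 residual degrees of freedom, for 19 comparisons, with Benjamini-Hochberg adjustment over 15302 genes and a threshold of 0.05. Comparisons of treatments average both constructs. The fit was tested on simulated data. DESeq2 1.42.0, other scaling, no filter, a GC offset and a term for the 2 sets of library numbers were tried. So were each line alone, each library left out, and the 3 libraries that stand apart left out. Each of the last 2 left 1 library in a group. Contrasts within each construct, tested in the same fit of 24 libraries, were added after the data were seen. Where a group had no count of TKTL1 the fold was taken against 3 counts over the group.

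The 10 genes, the related lists and the alternatives were chosen with earlier results of these data known. Genes of the lists are named as up to 2 called higher and 2 called lower per comparison by smallest p, and patterns as the 3 genes with the highest correlation among those with a mean log2 CPM of at least 1. FPKM columns were not used here.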

Additional observations from a re-analysis of the deposited data

Results flagged for a closer look

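The effect of Tet2CD, averaged over treatments, differed between SW480 and SW620 by the test of the difference itself for 5 of the 10 genes. The differences, SW480 minus SW620 on the log2 scale, were -1.52 for PFKFB3, -0.94 for HK2, -0.70 for SLC2A3, -0.60 for SLC2A1 and -0.31 for HK1 (edgeR adjusted p from 0.00395 to 0.0478). Each effect in SW480 was negative, and 3 of the 6 SW480 Tet2CD libraries behind it are the ones that stand apart. Without those 3 libraries the differences were -1.12, -0.54, -0.58, -0.39 and -0.31 in the same order of genes.

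The TGFB1 effect differed between the lines for SLC2A3 (-3.43), PFKFB4 (-1.78) and SLC2A1 (-1.12), with the larger increase in SW620. In vector cells with DMSO all 3 genes started from lower levels in SW620, as did SLC2A3 and SLC2A1 in Tet2CD cells. PFKFB4 in Tet2CD cells with DMSO had a mean of 26.7 CPM in SW620 and 39.2 CPM in SW480, but 21.5 and 18.05 TPM. The RepSox effect differed for SLC2A3 (0.94), which was called lower in SW620 and not called in SW480. The part that the starting level has in these differences was not tested.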

How the results depend on the processing

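The 10 genes gave 56 calls over the 19 comparisons. Under the alternatives set at the start other than leaving out single libraries, 351 of 372 tests kept direction and side of the threshold, 20 lost the call and 1 turned, PFKL with Tet2CD in SW480 averaged over treatments, at -0.07 with the GC offset. DESeq2 and the term for the 2 sets of library numbers lost no call. In each of the 19 comparisons the replicate block for library numbers called the same number of the 10 genes, for example 8 with TGFB1 in SW620. The labels give no replicate numbers, and the sets were not taken as pairs. The difference between the 2 libraries of a group, over all tested genes, was correlated between groups. Of 66 such correlations 12 were over 0.1 (from -0.236 to 0.714), so some groups deviated together. The main fit treats their libraries as independent.

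Counts of called genes among the 10 moved as follows, with counts from the fit without the 3 libraries that stand apart left out. The share of all genes called in each setting is not given beside them. A shift therefore cannot be told apart from a change in calling over all genes. For TGFB1 against DMSO in SW480, 2 were called with all libraries, 5 by DESeq2 and 0 with SW480 fitted alone. Within Tet2CD cells 0 were called there and within vector cells 1. For TGFB1 against RepSox in SW480, 5 became 1 with SW480 alone, 0 within Tet2CD cells and 4 within vector cells. For Tet2CD against vector in SW480 with DMSO, 4 became 1 with SW480 alone. Vector cells alone gave 5 in place of 8 for TGFB1 and 1 in place of 3 for RepSox in SW620. The difference of the RepSox effect between the lines gave 2 in place of 1 without a filter and by DESeq2. Leaving out 1 library gave 1 to 3 calls for TGFB1 in SW480 and 3 to 8 for TGFB1 against RepSox there, the 8 without SW480 Tet2CD RepSox replicate 2. It gave 1 to 3 for Tet2CD in SW480 with DMSO, the 1 without Tet2CD replicate 1 or vector replicate 2, 2 to 6 for the difference of the Tet2CD effect between the lines and 0 to 2 for that of the RepSox effect.

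Values that turned sign were not called in the fit of all libraries, except PFKL at -0.06844 above. For Tet2CD in SW480 averaged over treatments, PFKP (0.02) was -0.02266 without a filter, -0.3069 with the GC offset, -0.1201 without the 3 libraries and -0.07938 to 0.04452 with 1 library left out, and SLC16A3 (0.23) was -0.476 with the GC offset and -0.1855 without the 3 libraries. For TGFB1, PFKL was -0.0457 in SW480 vector cells and 0.00168 in SW620 Tet2CD cells, with -0.1967 to 0.03335 in SW620 when 1 library was left out. In the difference of the Tet2CD effect between lines PFKL was -0.01863 with the GC offset, and SLC16A3 reached 0.0446 with 1 library left out. The cause was not tested.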

Other observations

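Related genes also differed between SW480 Tet2CD and vector cells when the 3 treatments were averaged, a comparison in which 29.2% of all genes were called higher and 25.3% lower by edgeR. Of 11 tested other glucose transporter and regulator genes 6 were higher and none lower, including SLC2A4 (2.75), SLC2A8 (1.91), ARRDC4 (1.84) and TXNIP (0.78) on the log2 scale. Their median was 0.657, and 0.714 without the 3 libraries that stand apart. Of the 16 HIF genes 9 were lower, including DDIT4 (-1.42) and NDRG1 (-0.90), and 3 were higher, CA9, EGLN2 and EGLN3. The HIF median was -0.622, and -0.238 without the 3 libraries. In lower glycolysis 3 of 12 were lower, among them LDHA (-0.65) and PGK1 (-0.77), and 3 were higher. The median there was 0.024, and -0.238 without the 3 libraries. Of 7 genes of pyruvate entry 2 were lower, PDK1 (-0.90) and PDK3, and 3 were higher, MPC1, MPC2 and PDK2. Of 7 tested genes among the other early glycolysis genes 2 were higher, FBP1 (2.48) and HKDC1, and 3 were lower, ADPGK, PFKFB2 and PFKM.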
